A study of Mus musculus with 16 samples.

Results

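The table of expression estimates lists 28432 loci, and 5143 of them carry a dash where the others carry a gene name. A locus here is a stretch of mm10 that the authors' transcript assembly treated as 1 transcription unit. The loci described below are the 5140 of these 5143 whose status field read OK in all 16 columns, with the same identifier in the count table. Of the 3 left out, XLOC_001441 shares its span with Phf3, XLOC_012412 shares its span with 3 named loci, and XLOC_027005 covers the mitochondrial genome and was marked as holding too many fragments to be quantified. The remaining loci were related to where they lie, to the nearest named locus and to its change between groups.

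The samples were day 6 embryoid bodies, aggregates of mouse embryonic stem cells, grown by the SFEBq method in GMEM medium with 5% KSR (a serum replacement) and with 2% matrigel added at day 1. All of them came from embryonic stem cells with a GFP reporter knocked into Rx, the eye-field gene listed in the tables as Rax. The WT group was wild type at Wdr5 and untreated, and the KO group was Wdr5 KO clone #3 with no doxycycline. The T12 and T48 groups were also Wdr5 KO, with an inducible human WDR5 (hWDR5) switched on by doxycycline at 12 h or at 48 h, called the early and the late rescue in the series title. The knockout is a single clone, the labels do not say whether the untreated KO cells carry the transgene, and the labels give no doxycycline-treated wild-type group, so the effect of the drug itself cannot be told apart from that of hWDR5. Each group had 2 biological duplicates with 2 technical runs each, which gave 8 libraries of 33229756 to 66935576 fragments, written a and b within a group with no order.

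WDR5 is a shared subunit of the SET1/MLL complexes, which methylate lysine 4 of histone H3 at promoters and enhancers. Mammalian genomes are also transcribed outside named genes. Such RNA includes divergent transcripts from promoters, short RNAs from enhancers, read-through beyond gene ends and long noncoding RNAs. A second source of unnamed signal is processed pseudogenes, copies of spliced messenger RNAs inserted elsewhere in the genome by retrotransposition. Reads from a young copy and from its parent gene are so alike that short-read alignment cannot always tell them apart.

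The first sequences show how close that likeness is for 4 pseudogene loci among the largest differences between groups and for 1 of the most abundant unnamed loci. Each pair gives 90 bases of the pseudogene locus and the matching coding stretch of its parent, both 5′ to 3′ on the gene's own strand, from the GENCODE M21 transcripts (mm10), with mismatched bases in capitals. The stretch shown is the one with the most mismatches among ungapped coding stretches of that length. Parent coordinates run from the first to the last base and can include introns. Gm5424 lies at chr10:62071462-62071551 and Ass1, which encodes argininosuccinate synthase of the urea cycle, at chr2:31481140-31488586.
Gm5424: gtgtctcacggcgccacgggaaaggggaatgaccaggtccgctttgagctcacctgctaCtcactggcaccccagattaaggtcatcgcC
Ass1: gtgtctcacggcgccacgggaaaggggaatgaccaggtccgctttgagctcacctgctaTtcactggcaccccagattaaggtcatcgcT
Gm13929 lies at chr2:112000787-112000876 and Tdh, which encodes the threonine dehydrogenase of mouse pluripotent cells, at chr14:63494375-63495736.
Gm13929: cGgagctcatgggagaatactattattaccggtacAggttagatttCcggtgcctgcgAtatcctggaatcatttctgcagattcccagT
Tdh: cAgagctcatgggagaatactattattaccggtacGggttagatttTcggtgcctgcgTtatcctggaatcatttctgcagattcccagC
Hsp25-ps1 lies at chr13:45079032-45079121 and Hspb1, which encodes a small heat shock protein, at chr5:135888065-135888154.
Hsp25-ps1: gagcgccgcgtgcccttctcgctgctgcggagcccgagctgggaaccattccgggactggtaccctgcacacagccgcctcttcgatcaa
Hspb1: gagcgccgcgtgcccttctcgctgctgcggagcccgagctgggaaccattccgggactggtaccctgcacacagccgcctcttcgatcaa
Gm6083 lies at chr5:29538344-29538433 and Dppa5a, an RNA-binding protein gene of pluripotent cells, at chr9:78367738-78367827.
Gm6083: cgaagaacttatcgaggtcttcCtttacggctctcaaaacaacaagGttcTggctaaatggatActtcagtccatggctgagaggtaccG
Dppa5a: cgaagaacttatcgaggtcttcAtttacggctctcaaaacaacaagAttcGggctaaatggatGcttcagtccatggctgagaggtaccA
Rpl3-ps1 lies at chrX:13202572-13202661 and Rpl3, which encodes a protein of the large ribosomal subunit, at chr15:80082496-80083326.
Rpl3-ps1: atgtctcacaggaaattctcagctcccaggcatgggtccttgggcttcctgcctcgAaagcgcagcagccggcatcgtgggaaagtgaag
Rpl3: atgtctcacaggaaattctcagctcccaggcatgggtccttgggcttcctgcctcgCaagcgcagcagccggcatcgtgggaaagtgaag
The pairs differ at 2, 5, 0, 5 and 1 of 90 bases in this order.

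A different kind of sequence marks the locus with the highest level in the late rescue among those near developmental genes. The stretch below is the 123 bases between the RefSeq start of the long noncoding RNA Hand2os1 and that of Hand2, a transcription factor gene of heart and limb mesoderm, at chr8:57320860-57320982 of GRCm38 on the + strand, the strand of Hand2. The unnamed locus XLOC_024879 lies on the left of it and Hand2 on its right. Capitals mark matches to 2 promoter motifs, both on the other strand. The first motif is the GC box with the letters GGGCGG. The second is the CCAAT box, spelled by its name.
Hand2os1 to Hand2: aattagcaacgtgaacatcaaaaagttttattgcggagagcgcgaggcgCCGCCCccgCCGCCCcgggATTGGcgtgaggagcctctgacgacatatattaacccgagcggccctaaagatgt
The stretch holds 13 CG pairs, 2 GC boxes that do not overlap, 1 CCAAT box and no match to TATAAA. Over all 32851 RefSeq promoters of 300 bases, counting both strands, 35.7% hold GGGCGG, 37.4% hold CCAAT and 13.6% hold TATAAA. These matches describe the letters and say nothing of binding.

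Most of the unnamed loci were short and lay close to named ones. A span of their own was given for 4877 loci, with a median of 301 bases and quartiles of 160 and 541. Another 263 shared a merged span with other loci, 181 of them with a named one. The median distance to the nearest named locus was 9131.5 bases. It was under 1 kb for 736 loci and within 10 kb for 2475, both leaving out the 181 that overlap, and over 100 kb for 776. By GENCODE M21, 1729 of the loci overlapped a pseudogene exon, 1596 of these a processed pseudogene. Another 1679 were intergenic, 528 touched an exon of a protein-coding gene and 471 lay in an intron. Exons of long noncoding RNAs were touched by 375 and of TEC models (annotated transcripts still to be tested) by 88. The other 7 touched an exon of a small RNA or of a gene of some other class. The 263 with a shared span were kept as a class of their own. Of the 528 at protein-coding exons, 320 were exonic parts of the nearest named gene itself that the assembly had kept apart. Of the 4877 loci with a span of their own, only 1 overlapped a miRNA hairpin. Shared spans were not searched for hairpins.

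**Figure D1:**
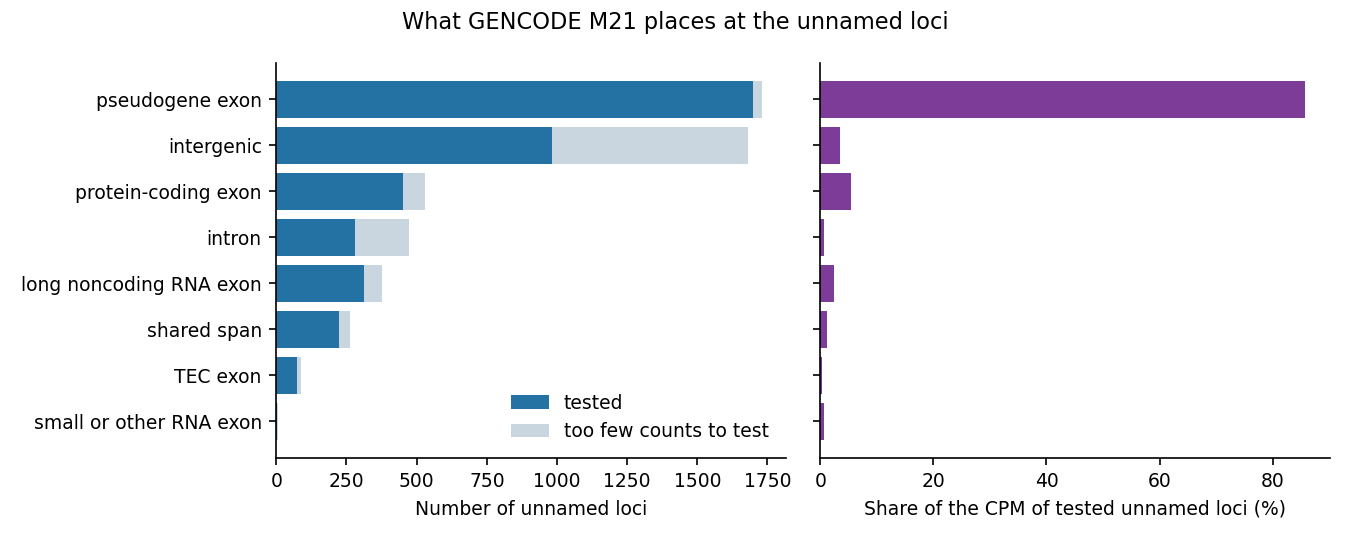
Number of unnamed loci in each annotation class (left, dark for those tested and pale for those with too few counts to test) and the share of the summed CPM of tested unnamed loci that each class took, in percent (right; TEC is a GENCODE class for models that await an experimental check). Pseudogene exons (1729 loci) and intergenic spans (1679 loci) are the 2 largest classes by number, but took 85.8% and 3.47% of the CPM.

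RNA was low at most of these loci. The median level over the 4030 that passed the filter on low counts was 0.867 CPM (counts relative to the TMM-scaled library size), against 20.5 CPM over the named loci tested. 1110 loci did not pass the filter, 2 of which were at 0 in all libraries, and 1004 reached 5 CPM in some group. The unnamed loci together took 3.44% and 3.41% of the counts in the WT libraries and 3.22% and 3.27% in KO. In T12 they took 3.08% and 3.27%, and in T48 3.44% and 3.24%. KO lay below WT without overlap (3.24% ± 0.0302 against 3.43% ± 0.0189, SD, n = 2). The exact two-sided permutation test gave p = 0.333, the smallest that 2 against 2 libraries allow. The 2 T48 libraries overlapped the range of KO. Pseudogene exons carried 85.8% of the summed CPM of unnamed loci, protein-coding exons 5.36%, intergenic loci 3.47% and long noncoding RNA exons 2.41%.

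The unit decides how large these loci look. On the deposited FPKM scale (fragments relative to transcript length and library size), unnamed loci took 69.6% to 72.9% of the summed values, group by group. Set against CPM per kilobase of span, the median ratio of FPKM was 0.999 for the 458 own-span loci of 1001 to 5000 bases. It was 3.61 for the 508 loci of 201 to 300 bases, 19.1 for the 326 of 101 to 150 bases and 48.3 for the 472 of 100 bases or fewer. These shortest loci held 2.99% of the CPM and 61.2% of the FPKM of loci in this comparison. XLOC_028280, a 73-base piece of the pseudogene Gm6368, was listed at a mean of 23200 FPKM with 27.3 CPM, the highest FPKM of any unnamed locus. XLOC_006235, an 89-base piece of Gm6992, followed with 15200 FPKM and 35 CPM. FPKM at spans this short were therefore not used for levels below.

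**Figure D2:**
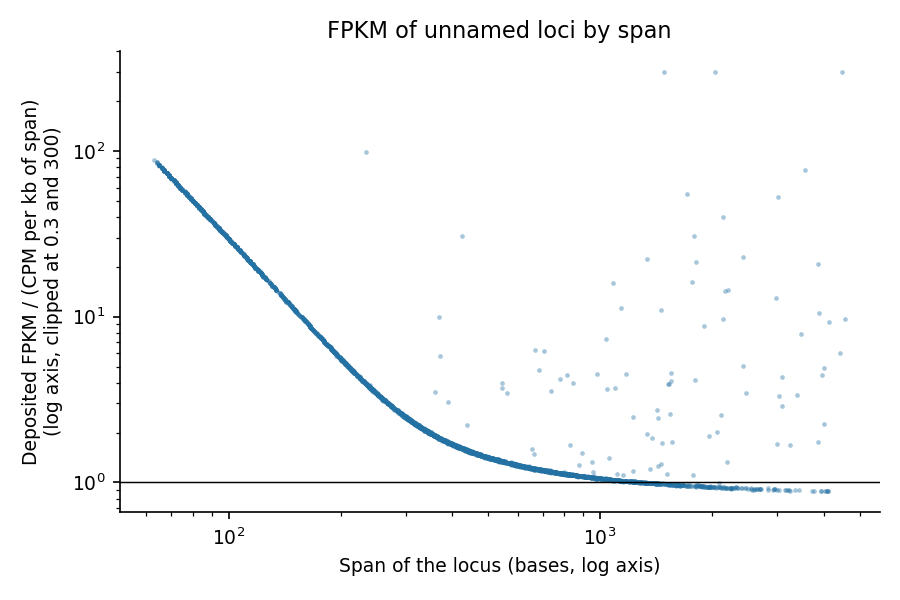
Ratio of deposited FPKM to CPM per kilobase of span (log axis) against span in bases (log axis) for unnamed loci with a span of their own of up to 5000 bases, with ratios past 300 drawn at 300. The ratio sits near 1 for long spans (median 0.999 at 1001 to 5000 bases) and reaches a median of 48.3 at 100 bases or fewer.

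The labels were first checked with Wdr5 itself. It stood at 182 and 181 CPM in WT, 32.7 and 28.9 in KO, 325 and 332 in T12 and 265 and 281 in T48, so the knockout libraries were lowest and did not overlap the others. The human transgene and the mouse gene were not told apart in this count. Rax, the eye-field gene, averaged 190 CPM in WT, 0.797 in KO, 216 in T12 and 0.375 in T48. Pou5f1, a gene of pluripotent cells, averaged 21.2, 234, 6.58 and 3.54 CPM in the same order. Hand2 averaged 0.423, 1.10, 1.55 and 568 CPM. Col1a1, a collagen gene of fibroblasts and mesenchyme, averaged 4.16, 5.81, 4.85 and 527 CPM. The other fibroblast markers checked did not share 1 pattern. Postn averaged 0.674, 0.365, 0.749 and 77.8 CPM and Col1a2 50.2, 4.99, 100 and 162. Thy1 was highest in KO, at 0.975, 5.82, 0.285 and 1.29 CPM. The groups therefore differed in markers of several cell types, and in bulk RNA fewer cells of a type and less RNA per cell cannot be told apart. Their part in the results below was not tested.

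In KO against WT, 408 unnamed loci rose and 618 fell among the 4030 tested (edgeR's quasi-likelihood test, adjusted p under 0.05 over all 20108 loci). That is 25.5% of them, against 55.3% of all loci called in either direction. Over all loci 28.3% rose and 27.0% fell. The median log2 difference was -0.24 over the unnamed loci and -0.00 over all loci. From counts pooled over a group, with those under 3 set to a floor of 3, it was -0.28 and -0.01. The size of this median depended on the filter and on single libraries. With a filter of 1 CPM in 2 libraries it was -0.0827 over the unnamed loci and -0.0109 over all loci. Without WT library a it was -0.0712 and 0.0447, and without WT library b -0.067 and 0.0395. The classes did not share this shift. At pseudogene exons 259 rose and 217 fell of 1697 tested, with a median of -0.01. At intergenic loci 45 rose and 154 fell of 984 (median -0.51), at introns 11 and 54 of 282 (-0.75), at long noncoding RNA exons 19 and 64 of 314 (-0.69) and at protein-coding exons 62 and 80 of 452 (-0.50). Without WT library a, the counts were 251 higher and 387 lower.

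Several loci with large decreases lay beside genes of the forming eye and forebrain. XLOC_021523 (chr6:23251184-23254431) overlaps the TEC model C130093G08Rik and begins 77 bases upstream of Fezf1, a zinc finger gene of the forebrain. Its level was 79.8 and 73.9 CPM in WT, 0.442 and 0.192 in KO, 66.2 and 70.1 in T12 and 1.57 and 0.657 in T48. WT and T12 were high, KO and T48 near 0. The log2 difference was -7.77 ± 0.29 (SE, adjusted p = 1.18e-10) for KO against WT and 7.59 ± 0.29 (adjusted p = 1.18e-10) for T12 against KO. Fezf1 itself moved by -7.22 ± 0.25 and 7.40 ± 0.25.

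A second locus of this kind, XLOC_003164 (chr10:42583981-42585858), starts 393 bases upstream of Nr2e1, an orphan nuclear receptor gene of the forebrain and retina, and touches an exon of Ostm1. It had 5.99 and 5.31 CPM in WT, 0.0295 and 0 in KO, 8.09 and 8.36 in T12 and 0.0258 and 0 in T48. KO held so few counts that the ratio of WT to KO was 295, with an exact 95% counting interval of 81.2 to 2440. XLOC_011779 (chr17:85628959-85629788) is an exonic piece of Six3, a homeobox gene of the eye field, 2768 bases downstream of the named locus. With 2.37 and 2.16 CPM in WT and 0 in both KO libraries it was at least 78.9-fold lower in KO, taking 3 counts over the group as the floor. XLOC_006275 (chr12:72947969-72948382), in an intron of Gm26709 and 2894 bases downstream of the eye-field gene Six6, had 2.45 and 2.34 CPM in WT and 0.0147 and 0 in KO. Its ratio was 250, with a counting interval of 44.2 to 9920.

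Not every large decrease was next to an eye-field gene. XLOC_026928 (chr9:72948016-72952094) is an exonic stretch of Pygo1, a Wnt signalling cofactor, 55 bases beyond the named locus. It had 14.0 and 15.1 CPM in WT, 0.177 and 0.192 in KO, 16.5 and 16.1 in T12 and 7.11 and 6.10 in T48. It fell by 6.30 ± 0.26 on the log2 scale in KO (adjusted p = 3.21e-10), and both rescues rose against KO. XLOC_020111 (chr5:64487152-64489399) is intergenic, 3186 bases from C030018K13Rik. It had 4.55 and 7.10 CPM in WT, 0.147 and 0.220 in KO, 8.06 and 7.71 in T12 and 0 in both T48 libraries, a log2 difference of -5.02 ± 0.42 for KO (adjusted p = 5.14e-07). XLOC_008436 (chr14:44596660-44597950), at an exon of the long noncoding RNA AC160336.1, had 33.5 and 32.0 CPM in WT, 4.13 and 2.61 in KO, 13.0 and 17.4 in T12 and 37.2 and 46.3 in T48. Unlike the loci above it was highest in WT and T48.

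Large increases in KO were found at an intergenic locus, an exonic locus and pseudogenes. XLOC_006141 (chr12:5643140-5643210) is intergenic, 71 bases long and 227008 bases from the nearest named locus. It had 0.3 and 0.202 CPM in WT, 4.45 and 7.77 in KO, 0.842 and 0.695 in T12 and 0 and 0.0704 in T48. Its log2 difference of 4.58 ± 0.59 (adjusted p = 1.69e-05) did not pass in limma on the log2 FPKM scale. XLOC_023892 (chr7:19495030-19496608), at an exon of Exoc3l2, had 0.109 and 0.548 CPM in WT, 6.51 and 7.55 in KO, 0.311 and 0.0434 in T12 and 4.64 and 5.75 in T48. KO and T48 were high, with 4.42 ± 0.62 for KO against WT (adjusted p = 3.64e-05). Its nearest named locus, Bloc1s3, differed by 0.08 ± 0.19.

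The copies of Ass1, Tdh and Hspb1 rose in KO, as did these 3 genes. Gm5424 (XLOC_003209, chr10:62071022-62072472), the Ass1 copy shown above, had 12.5 and 11.3 CPM in WT, 198 and 199 in KO, 6.88 and 6.49 in T12 and 12.5 and 14.6 in T48. It rose by 4.06 ± 0.11 (adjusted p = 8.65e-12), and Ass1 by 4.16 ± 0.30. Gm13929 (XLOC_015513, chr2:112000115-112001060), the Tdh copy, had 3.79 and 4.33 CPM in WT, 55.5 and 58.6 in KO, 2.84 and 3.80 in T12 and 0.696 and 1.74 in T48. Its log2 difference was 3.81 ± 0.27 and that of Tdh 4.02 ± 0.13. Hsp25-ps1 (XLOC_007364, chr13:45078569-45079121) had 5.75 and 6.35 CPM in WT, 47.3 and 44.7 in KO, 2.14 and 1.30 in T12 and 1.42 and 1.10 in T48. Both it (2.93 ± 0.21) and Hspb1 (3.09 ± 0.17) rose, and only the KO libraries were high.

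**Figure D3:**
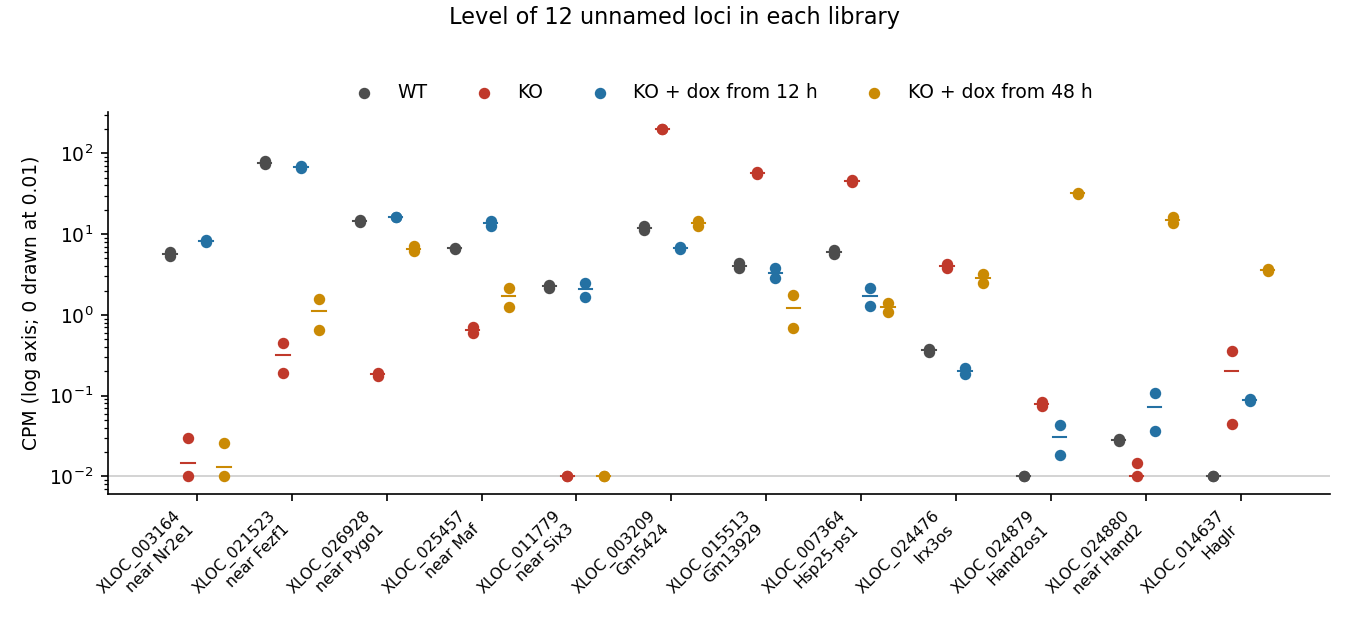
CPM (log axis, 0 drawn at 0.01) of 12 unnamed loci in each of the 8 libraries, coloured by group, with a bar at each group's mean. The locus beside Fezf1 lies at 66.2 to 79.8 CPM in WT and T12 and under 2 CPM in KO and T48, and the Hand2os1 locus reaches 32.2 and 31.8 CPM in T48 and lies under 0.1 CPM in the other libraries.

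The early rescue was compared with KO next. 530 unnamed loci rose and 403 fell, 23.2% of those tested, against 55.3% of all loci called in either direction (27.1% higher, 28.1% lower). Intergenic loci gave 133 higher and 60 lower, introns 43 and 10, and pseudogene exons 201 and 228. The loci upstream of Fezf1 and Nr2e1 were again among the largest increases, the second with a ratio of T12 to KO of 428 and a counting interval of 118 to 3540. XLOC_018831 (chr5:35396946-35400036), an exonic piece of Hmx1, a homeobox gene of the eye, had 3.21 and 2.97 CPM in WT, 0.0147 and 0 in KO, 6.23 and 5.14 in T12 and 0.0258 and 0.0470 in T48. Its ratio of T12 to KO was 597, with an interval of 107 to 23600. Decreases included XLOC_023892 (-5.23 ± 0.64, adjusted p = 1.03e-05) and the Ass1, Hspb1 and Tdh copies, at -4.89 ± 0.11, -4.73 ± 0.23 and -4.11 ± 0.27. Without T12 library b the increases numbered 321.

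Against WT the early rescue differed at few loci. 54 unnamed loci were higher and 101 lower, or 3.85%, against 11.4% of all loci (6.58% higher, 4.78% lower). These counts were 25 and 42 without WT library a, 26 and 55 without T12 library b, and 53 lower without T12 library a. The largest decrease by the naming rule was at Gm5805 (XLOC_009509, chr15:81972373-81972543), a copy of the ribosomal protein gene Rps14. It had 45.4 and 66.0 CPM in WT, 15.9 and 8.93 in KO, 4.50 and 2.13 in T12 and 39.6 and 69.0 in T48, a log2 difference of -4.05 ± 0.37 for T12 against WT (adjusted p = 2.42e-05). Rps14 differed by 0.42 ± 0.14 (adjusted p = 0.0691). Gm19963 (XLOC_024028, chr7:119742814-119745377), which resembles Lacc1 over 1256 bases at 88.8% identity, had 5.64 and 5.94 CPM in WT, 0.634 and 0.852 in KO, 13.5 and 14.3 in T12 and 0.0258 and 0.0235 in T48. It was 1.27 ± 0.24 higher in T12 than in WT on the log2 scale (adjusted p = 0.00334). Its levels fell in the same order of groups as those of Rax, from T12 to WT, KO and T48.

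The late rescue against KO gave the most calls. 700 unnamed loci rose and 461 fell, or 28.8%, against 58.5% of all loci (27.8% higher, 30.6% lower). The median log2 difference was 0.23 over the unnamed loci and -0.03 over all loci. With a filter of 1 CPM in 2 libraries it was 0.131 and 0.0268. Without T48 library a it was 0.119 and -0.0799, and without T48 library b 0.0517 and -0.127. Of the 250 loci tested on chromosome 8, 64 rose and 28 fell, and of 3780 elsewhere 636 and 433. The 64 include 22 loci beside Hand2, which are described below. Against WT, 261 unnamed loci were higher and 303 lower in T48 (14.0%, against 39.4% of all loci, 18.6% higher and 20.9% lower). Against T12, 466 were higher and 367 lower (20.7%, against 43.4%, with 19.7% higher and 23.7% lower). Against WT the counts were 120 and 174 without WT library b and 149 and 195 without T48 library a. Against T12 they were 236 and 241 without T12 library a and 294 and 241 without T12 library b, and 271 were higher without T48 library a.

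Loci around Hand2 were among those with large increases in the late rescue. XLOC_024879 (chr8:57304265-57320845) overlaps Hand2os1 and ends 138 bases upstream of the named Hand2 locus. It had 0 CPM in both WT libraries, 0.0737 and 0.0824 in KO, 0.0183 and 0.0434 in T12 and 32.2 and 31.8 in T48. It was 8.65 ± 0.33 higher in T48 than in KO on the log2 scale (adjusted p = 3.06e-10) and at least 761-fold higher than in WT. Hand2 itself differed from KO by 8.95 ± 0.17. On the other side, XLOC_024880 (a shared span, chr8:57331703-57345384) begins 7186 bases downstream of Hand2. Its level was 0.0272 and 0.0289 CPM in WT, 0.0147 and 0 in KO, 0.0366 and 0.109 in T12 and 16.5 and 13.7 in T48. T48 held 1570 times the level of KO, with a counting interval of 281 to 62000. XLOC_025340 (chr8:57345938-57348773), at an exon of the noncoding RNA 5033428I22Rik and 21421 bases downstream of Hand2, had 0.109 and 0 CPM in WT, 0.0295 and 0.522 in KO, 0.0366 and 0 in T12 and 6.05 and 6.74 in T48. In all, 22 tested loci within 50 kb had Hand2 as the nearest named locus, and all 22 were called higher in T48 than in KO and in T12. Loci at or near 0 elsewhere entered the test through T48 alone, so this count describes the region and is no independent support.

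Among called loci at 5 CPM or more in KO and without overlap between replicates, XLOC_006141 had the largest decrease of the late rescue, with a ratio of KO to T48 of 152 and a counting interval of 51.9 to 741. Copies of pluripotency genes fell as well. Gm6083 (XLOC_020056, chr5:29538183-29538630), the Dppa5a copy, had 4.79 and 11 CPM in WT, 49.4 and 52.5 in KO, 3.85 and 4.02 in T12 and 0.129 and 0.657 in T48. It fell by 6.97 ± 0.47 on the log2 scale against KO (adjusted p = 2.37e-08), and Dppa5a fell by 5.32 ± 0.25. Zfp42-ps1 (XLOC_009533, chr15:93679067-93679363), a copy of the pluripotency gene Zfp42 (Rex1), had 1.93 and 1.73 CPM in WT, 8.34 and 8.35 in KO, 0.934 and 0.347 in T12 and 0.0258 and 0.141 in T48. Its log2 difference was -6.56 ± 0.61 and that of Zfp42 -5.25 ± 0.16. At both copies KO was highest and T48 lowest.

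The rescues were set side by side through their own comparison. XLOC_021523 beside Fezf1 was 5.95 ± 0.26 lower in T48 than in T12 on the log2 scale (adjusted p = 3.97e-10). XLOC_020111, at 0 in both T48 libraries, was at least 214-fold lower in T48. XLOC_003164 beside Nr2e1 had a ratio of T12 to T48 of 669, with a counting interval of 120 to 26400. Higher in T48 were the Hand2 loci and XLOC_023892 at Exoc3l2 (4.79 ± 0.64, adjusted p = 3.62e-05).

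Developmental gene lists give a wider view of which neighbourhoods moved. The lists were of named genes, and the loci counted are the unnamed ones within 50 kb whose nearest named locus is on the list. Of all loci tested, 28.3% rose and 27.0% fell in KO against WT, 27.1% and 28.1% in T12 against KO, 27.8% and 30.6% in T48 against KO, and 19.7% and 23.7% in T48 against T12. Several of the loci counted share a neighbour. Medians are of log2 ratios of counts pooled over a group, relative to library size, with counts under 3 set to the floor of 3. Loci at or near 0 in some groups passed the filter through the groups where they were high, so these counts are descriptions. Near eye-field and forebrain genes there were 18 loci, 17 of them tested, beside 8 genes, with Lhx2 (4), Six6 (3) and Nr2e1, Rax, Six3 and Vax1 (2 each) the most frequent. In KO 16 fell and 0 rose (median log2 difference -4.66, against -0.01 over all loci). In T12 against KO 15 rose and 0 fell (4.67, against 0.0), and in T48 against KO 1 rose and 0 fell (0.36, against -0.02). Against T12, T48 had 0 higher and 14 lower.

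Neighbours of neural progenitor genes split. Of 26 loci, 22 were tested, and in KO 3 rose and 10 fell (median -2.31), against 28.3% and 27.0% of all loci. Beside Meis2, a homeobox gene, 3 of 6 fell in KO, 3 rose in T12 and 5 rose in T48. One of them, XLOC_015517 (chr2:116065149-116065825), lies 91 bases upstream and had 4.71 and 3.46 CPM in WT, 0.590 and 1.24 in KO, 3.35 and 4.80 in T12 and 6.83 and 8.08 in T48. Its log2 differences were -2.21 ± 0.38 in KO and 3.08 ± 0.38 for T48 against KO. The neighbours of Gbx2 and Irx3 went the other way. Beside Gbx2 2 of 2 rose in KO, and against KO 1 fell in T12 and 1 in T48. XLOC_024476 (chr8:91802718-91804806), at an exon of Irx3os and 1064 bases upstream of the homeobox gene Irx3, had 0.381 and 0.346 CPM in WT, 4.26 and 3.79 in KO, 0.183 and 0.217 in T12 and 2.50 and 3.22 in T48. Its log2 difference in KO was 3.46 ± 0.43 and that of Irx3 3.64 ± 0.17.

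The list of pluripotency and germline genes had 13 loci, 8 of them tested, and 7 of the 8 lay beside Lin28b, whose product blocks let-7 maturation. In KO 7 fell and 0 rose (median -4.81), against 27.0% and 28.3% of all loci, while Pou5f1 was higher in KO. XLOC_002651, which shares the Lin28b span, had 2.83 and 2.63 CPM in WT, 0.0442 and 0.192 in KO, 2.09 and 1.5 in T12 and 0 and 0.305 in T48. Lin28b fell by 2.49 ± 0.08 on the log2 scale in KO. The remaining locus, XLOC_025305 (chr8:43289828-43289951), is intergenic and 5116 bases downstream of Zfp42. It had 19.1 and 16 CPM in WT, 13.1 and 12 in KO, 13.3 and 13.1 in T12 and 20.3 and 22.9 in T48, with the KO and T12 libraries lowest. Its log2 difference was -0.48 ± 0.15 in KO and 0.78 ± 0.15 for T48 against KO, while Zfp42 gave 1.99 ± 0.13 and -5.25 ± 0.16.

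Neighbourhoods of mesoderm and endoderm genes differed from gene to gene. For the streak, mesoderm and endoderm list, 14 of 20 loci were tested. In KO 4 of the 14 were higher and 0 were lower. The 4 are a share near the 28.3% of all loci and above the 10.1% of unnamed loci. In T12 against KO 0 were higher and 6 lower (27.1% and 28.1% of all loci), and in T48 against KO 8 were higher and 3 lower (27.8% and 30.6% of all loci). Beside Gata6, an endoderm and heart gene, 7 of 8 rose in T48 against KO, while beside Sox17, an endoderm gene, 3 of 4 rose in KO, 4 fell in T12 and 3 fell in T48. Of these, XLOC_001334 and XLOC_001332 are pieces of the pseudogene Gm7357, 28718 and 26441 bases from Sox17. They resemble Mov10 at 95.3% and 93.3% identity. Mov10 averaged 20.1, 61.6, 23.4 and 33.1 CPM in WT, KO, T12 and T48, and Sox17 19.5, 151, 28.8 and 23.6. Which of the 2 genes these pieces follow was not tested. XLOC_012377 (chr18:11043807-11044863), in an intron of 1010001N08Rik and 7647 bases upstream of Gata6, had 0.327 and 0.231 CPM in WT, 0.678 and 0.742 in KO, 0.293 and 0.456 in T12 and 10.2 and 9.44 in T48. It rose by 3.79 ± 0.37 against KO on the log2 scale, and Gata6 by 0.95 ± 0.08. In the cardiac and lateral plate list, 35 of 47 loci were tested. In T48 against KO 32 rose and 1 fell, against 27.8% and 30.6% of all loci. Of the 13 not beside Hand2, 5 of 6 rose at Hand1 and 2 of 2 each at Nkx2-5 and Tbx5, all transcription factor genes of the heart. In KO against WT that list had 1 higher and 0 lower, and in T12 against KO 1 and 2.

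Smaller lists are given for completeness. Near Hox genes 3 of 7 loci were tested, and all 3 rose in T48 against KO (27.8% of all loci rose). XLOC_014637 (chr2:74749838-74751802), at an exon of Haglr and 1567 bases downstream of Hoxd4, had 0 CPM in both WT libraries, 0.0442 and 0.357 in KO, 0.0916 and 0.0868 in T12 and 3.48 and 3.66 in T48. It was at least 85.0-fold higher in T48 than in WT. Beside imprinted genes 29 of 33 were tested, with 2 higher and 3 lower in KO, below the 28.3% and 27.0% of all loci. Of the unnamed loci tested, 10.1% were higher and 15.3% lower. XLOC_023963 (chr7:62338427-62340071), at an exon of Gm32061 and 8206 bases upstream of the imprinted gene Ndn, had 3.24 and 3.52 CPM in WT, 0.0147 and 0.0275 in KO, 4.60 and 4.78 in T12 and 0 in both T48 libraries. Its ratio of WT to KO was 176 (counting interval 48.2 to 1460), and Ndn fell by 1.69 ± 0.08 on the log2 scale. In T48 against KO, Ndn rose by 2.36 ± 0.09 while this locus was at 0. Near p53 target genes 4 of 7 were tested, with 1 higher and 0 lower in KO. Near genes of the WDR5 complexes all 7 were tested, with 0 higher and 2 lower in KO. These counts are too small to set apart from the 28.3% higher and 27.0% lower of all loci. XLOC_015379, 4350 bases downstream of Wdr5, had 0.627 and 0.837 CPM in WT and 0.472 and 0.275 in KO and did not pass the test (adjusted p = 0.251).

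Agreement of an unnamed locus with its nearest named locus was counted by distance and class. Both partners were tested in 3177 pairs, with 1802 different named loci. 657 of these had 2 or more unnamed neighbours, and 1 had 27, so the pairs are not independent. In KO against WT, 350 pairs within 10 kb had both loci called, and 293 of them (83.7%) went the same way. Between 10 and 100 kb it was 99 of 191, and beyond 100 kb 35 of 68. Named loci paired with their nearest other named locus within 10 kb went the same way in 2381 of 3821 pairs (62.3%). The 2 sets differ in level, with medians of 0.867 CPM over the unnamed and 20.5 CPM over the named loci tested. At 5 CPM or more in both loci, the unnamed pairs within 10 kb gave 76.2%. Named pairs matched for level were not counted. Among the unnamed pairs, T12 against KO gave 273 of 314 (86.9%) within 10 kb and T48 against KO 297 of 351 (84.6%). The groups are shared between these comparisons, so they are 3 views of the same libraries.

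Pseudogene loci were then separated from the others. Without them, 268 of 307 pairs within 10 kb (87.3%) went the same way in KO against WT, with a Spearman correlation of log2 differences of 0.51 over 1590 pairs. The pseudogene loci within 10 kb gave 25 of 43 (58.1%) and a correlation of 0.08 over 233 pairs. In T12 against KO the 2 shares within 10 kb were 252 of 279 (90.3%) and 21 of 35 (60.0%), and in T48 against KO 267 of 297 (89.9%) and 30 of 54 (55.6%). Between 10 and 100 kb the shares in KO against WT were 42 of 62 (67.7%) for the other loci and 57 of 129 (44.2%) for pseudogene loci. Most pseudogene pairs lay at these larger distances, and at any distance they gave 108 of 227 (47.6%) and a correlation of -0.01 over 1087 pairs. These correlations run across loci that share libraries and neighbours and carry no p. Neighbouring loci can also share reads where an assembly splits 1 transcript, and the part of this in the agreement was not tested.

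**Figure D4:**
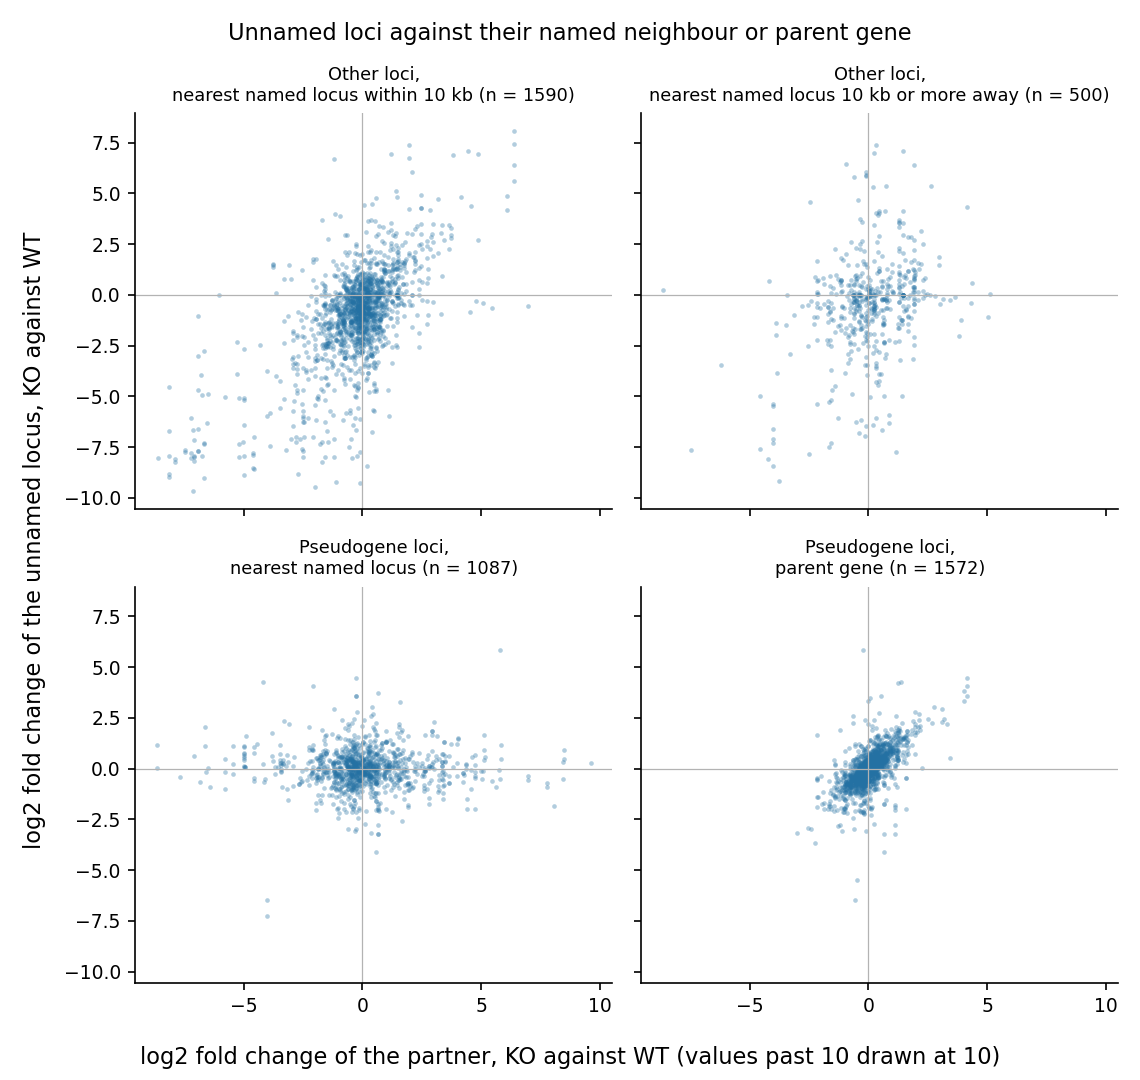
Log2 difference of unnamed loci (KO against WT) on the y axis against that of their partner on the x axis, 1 point per locus, in 4 panels by kind of locus and partner. The 1590 non-pseudogene pairs within 10 kb follow their neighbour (Spearman 0.51), the 1087 pseudogene loci show a correlation of -0.01 with theirs at any distance, and 1572 pseudogene loci follow their parent gene (0.67).

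The side of the neighbour was then considered. Among loci that are not pseudogenes, 553 lay within 1 kb upstream of a named locus and 102 within 1 kb downstream. Of the 553, 265 were intergenic, 64 intronic and 224 exonic, 131 of these last annotated on the opposite strand to the neighbour. Annotated exons of the neighbour itself made up 78 of the 553 and 41 of the 102. Between 1 and 10 kb the numbers were 522 upstream and 735 downstream, and 152 of the 735 were annotated exons of the neighbour itself. Where both were called in KO against WT, the pair went the same way in 68 of 81 cases upstream and 23 of 25 downstream under 1 kb, and in 54 of 67 and 74 of 81 between 1 and 10 kb. Sides follow the annotated strand of the neighbour. The strand of the reads was not used.

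Pseudogene loci have a second partner, the parent gene. Sequence search matched 1676 of the 1729 to a protein-coding transcript of 959 parent genes, and 1572 pairs had both loci tested. The median identity was 97.5%, with quartiles of 96.5% and 98.5%. In KO against WT both were called in 368 pairs and 360 went the same way. Only the parent was called in 606 pairs and only the pseudogene in 72. The Spearman correlation of log2 differences was 0.67 over the 1572 pairs, 0.75 over the 553 with at least 98% identity and 0.55 over the 249 under 96%. T12 against KO gave 334 of 342 and T48 against KO 414 of 435 in the same direction. Reads of a pseudogene and its parent could not be told apart with these tables, so whether any of this RNA came from the pseudogene copies was not tested.

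The ratio of each locus to its partner within a library puts the same contrast to a test. By limma on log2 ratios, 627 of 3177 ratios to the nearest named locus changed in KO against WT (19.7%), 602 in T12 against KO (18.9%) and 722 in T48 against KO (22.7%). For the ratio of pseudogene to parent it was 12 of 1572 (0.763%), 10 (0.636%) and 8 (0.509%). Of the 627 changed ratios to the neighbour, 330 were of pseudogene loci. Only the named neighbour was called in 294 of the 627 and only the unnamed locus in 68. Both were called the same way in 83 and opposite ways in 166, and neither in 16. A changed ratio thus does not say which of the 2 loci moved. Over the 1015 pseudogene loci with both kinds of partner, the ratio to the neighbour changed in 313 and the ratio to the parent in 12 in KO against WT. The median size of the change was 1.00 and 0.296 on the log2 scale. A ratio that missed the threshold is not shown to be unchanged, since 2 libraries a group and low counts leave small changes undetected. Leaving out 1 library moved the 12 to between 5 (without WT b) and 26 (without KO a). It moved the 627 to 232, 257 and 292 (without WT a, WT b and KO b), the 602 to 285, 281 and 238 (without KO b, T12 a and T12 b) and the 722 to 400 (without KO b). An example is Gm7774 (XLOC_020200, chr5:126025437-126026419), a copy of Ccdc115. It had 6.16 and 7.85 CPM in WT, 6.31 and 6.13 in KO, 6.48 and 6.84 in T12 and 3.81 and 5.47 in T48. Its nearest named gene, Tmem132b, averaged 13.6 CPM in WT and 0.111 in KO.

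A few pseudogenes departed from their parents. Gm6030 (XLOC_010408, chr16:45205390-45205512) and Gm9320 (XLOC_011760, chr17:70876150-70876291) resemble Rps24, a gene of the small ribosomal subunit, over 100 and 142 bases at 98% and 97.9% identity. Gm6030 had 1.47 and 1.73 CPM in WT, 10.2 and 9.04 in KO, 1.14 and 1.37 in T12 and 2.65 and 1.69 in T48. Gm9320 had 2.32 and 3.52 CPM in WT, 13.0 and 14.7 in KO, 1.96 and 2.17 in T12 and 1.62 and 1.97 in T48. The 2 loci rose in KO by 2.58 ± 0.32 and 2.25 ± 0.27 on the log2 scale, while Rps24 went from a mean of 156 to 99.8 CPM, a difference of -0.64 (adjusted p = 0.00188). The ratio to Rps24 rose by 3.19 ± 0.26 (adjusted p = 0.00255) and 2.90 ± 0.28 (0.00334). Gm8146 (XLOC_001912, chr1:181282082-181283935), a copy of Haus5, which encodes a spindle protein, had 17.6 and 17.7 CPM in WT, 6.37 and 5.80 in KO, 18.8 and 15.3 in T12 and 12.3 and 13.2 in T48. It fell by 1.53 ± 0.17 while Haus5 differed by 0.06 (adjusted p = 0.628). Gm12617 (XLOC_005211, chr11:60692574-60693085), which resembles Kxd1 at 87.1% identity, had 1.09 and 1.13 CPM in WT, 3.30 and 3.49 in KO, 0.238 and 0.304 in T12 and 0 in both T48 libraries. These 4 were singled out after their values were seen.

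At several ribosomal protein genes most counts were listed at the unnamed copy. Rpl3-ps1 (XLOC_028054, chrX:13202540-13203846) had 576 and 675 CPM in WT, 447 and 467 in KO, 659 and 583 in T12 and 715 and 645 in T48. The named Rpl3 locus lay between 0.361 and 1.54 CPM in the same libraries. Per length, the means were 456 FPKM for the copy and 0.730 for Rpl3. Rpl10a-ps1 averaged 529 FPKM against 1.76 for Rpl10a, Gm9843 averaged 909 against 8.61 for Fau, and Rps10-ps1 had 94.0 CPM against 0.199 for Rps10. Gm9843 spans 523 bases, and at 301 to 600 bases the FPKM of unnamed loci stood at a median of 1.62 times CPM per kilobase. Over the 1572 pairs the median ratio of pseudogene to parent CPM was 0.0356. The pseudogene was above the parent in 103 pairs and over 10 times above in 20, 18 of these with at least 98% identity. Restricted to the 316 pairs whose locus spans 600 bases or more, FPKM was higher at the pseudogene in 136. These ratios show where the fragments were assigned. The examples were chosen after their values were seen.

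**Figure D5:**
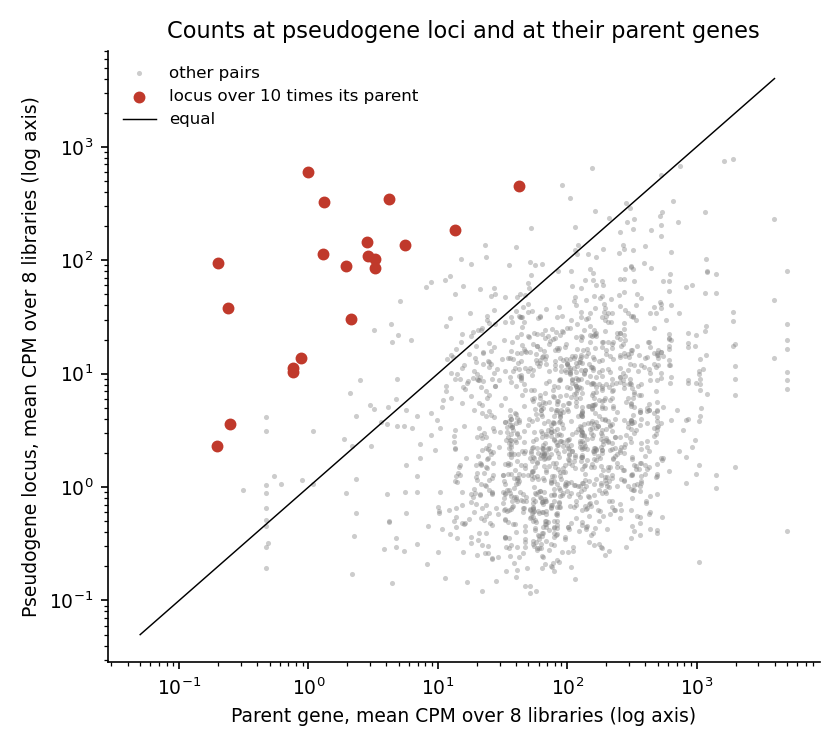
Mean CPM of each pseudogene locus (y axis, log) against mean CPM of its parent gene (x axis, log) over the 8 libraries for 1572 pairs. Most points lie below the line of equal level (median ratio 0.0356), and 20 lie more than 10 times above it, led by Rpl3-ps1.

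The most abundant unnamed loci were all pseudogene copies of widely expressed genes. Gm6560 (XLOC_020030, chr5:22724006-22726188), a copy of the glycolytic gene Pkm, had 914 and 877 CPM in WT, 522 and 547 in KO, 789 and 830 in T12 and 848 and 910 in T48. It fell by 0.74 ± 0.07 on the log2 scale in KO (adjusted p = 5.58e-07), and Pkm fell by 0.88 ± 0.07. Gm9794 (XLOC_021605, chr6:66875261-66875772), a copy of the ribosomal protein gene Rpl23, had 587 and 611 CPM in WT, 260 and 252 in KO, 424 and 440 in T12 and 566 and 541 in T48. It fell by 1.23 ± 0.07 and Rpl23 by 1.5 ± 0.11. Gm4204 (XLOC_001768), a copy of the histone chaperone gene Nap1l1, had 868 and 804 CPM in WT, 438 and 441 in KO, 604 and 803 in T12 and 712 and 723 in T48. Gm5835 (XLOC_001787), a copy of Rpl4, was higher in KO, with 659 and 695 CPM in WT and 775 and 799 in KO, a log2 difference of 0.22 ± 0.07 (adjusted p = 0.0192). Others of the 10 were copies of Eif4a1, Rpl3, Hnrnpk, Naca and Fau.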

How the data were processed

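RNA of 16 samples (8 libraries, 2 runs each) was measured by RNA-seq of TruSeq libraries. The submitters' processing notes name Cufflinks 2.2.1, TopHat2 2.1.1, SAMtools 1.5 and deepTools, and the build mm10. Which annotation and strand setting the authors used is not given in the sources used here. Overlapping and antisense loci therefore cannot be told apart. Per the file headers, the deposited tables hold estimated counts of fragments per locus and FPKM. The count columns had been multiplied by 1 factor each (0.630 to 1.288 per fragment). Dividing it out left 94.5% to 95.4% of values whole within 0.02, and these expected counts were rounded. The other 112 columns were not used beyond the status. Columns name the group and no run, so technical runs were paired by agreement within a group (chi-square per degree of freedom 1.56 to 1.77 within pairs, 8.91 to 14.9 between) and summed. Nothing in the labels says how the duplicates were separated beyond "biological", and p-values measure the spread between these libraries.

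All loci with OK status were fitted in edgeR 4.0.16 (R 4.3.3) by the quasi-likelihood test with TMM, filterByExpr and all 4 groups in 1 fit (4 residual degrees of freedom, common biological coefficient of variation 15.4%), with Benjamini-Hochberg adjustment over 20108 loci. Ratios within a library were tested with limma 3.58.1 (prior count 2). Places come from GENCODE M21 and distances from the deposited mm10 spans. Parents come from blastn 2.17.0 of pseudogene exons against protein-coding transcripts (word size 16, E under 1e-10). Folds against a group at 0 use a floor of 3 counts over the group, and ratios with 1 to 3 counts carry exact 95% intervals. Both cover counting error only. The scripts were tested on simulated counts. DESeq2 1.42.0 and limma on log2(FPKM + 1) or log2(FPKM + 0.1) served as alternatives.

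The loci named are the 6 largest changes each way per comparison (3 against WT for the rescues) at 5 CPM or more without overlap between replicates, the 10 highest, up to 4 near each list, and the 4 largest changes of ratio each way. Of these 90 loci the text gives a selection. Members and lists were chosen with earlier results of these data known. One result is not reported here.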

Additional observations from a re-analysis of the deposited data

Results flagged for a closer look

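At 7 of the named loci the early and the late rescue differed from KO in opposite directions, and the difference between the rescues was itself tested in edgeR. XLOC_020111 on chromosome 5 rose in T12 (log2 difference 5.46) and was lower in T48 (-6.00, with both T48 libraries at 0), a difference of -11.46 between T48 and T12 (adjusted p = 7.28e-08). These fitted values depend on the prior count, and the bound of at least 214-fold stands in the report. Gm19963 (XLOC_024028) gave 4.25 and -4.74, a difference of -8.99 (adjusted p = 1.2e-09). For the Rps14 copy Gm5805 (XLOC_009509) it was -1.91 and 2.11, a difference of 4.02 (adjusted p = 1.12e-06).

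Beside Hand2, XLOC_025328 gave -6.10 and 4.73, a difference of 10.83 (adjusted p = 0.000213). It had 0 CPM in both T12 libraries and 5.51 and 4.7 in T48, so its fitted differences from T12 depend on the prior count. Its KO signal came from 1 library (0 and 0.440 CPM), and the decrease in T12 was not called without KO library b, without either T12 library, on the FPKM scale or in DESeq2. XLOC_025340 gave -3.45 and 4.70, a difference of 8.15 (adjusted p = 8.03e-05), with 0.0295 and 0.522 CPM in KO. XLOC_012374 (chr18:11013660-11014465), 38045 bases upstream of Gata6, gave -1.37 and 3.16, a difference of 4.52 (adjusted p = 3.3e-06).

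The remaining difference was small. The Tmsb10 copy AC113528.1 (XLOC_012469) gave 0.64 and -0.61, a difference of -1.26 (adjusted p = 0.000186). Groups of 2 libraries are too small to look for outlying samples.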

How the results depend on the processing

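Over the 90 named loci and all comparisons, 311 calls were recomputed under each setting, which gave 6468 values: 6129 stayed past the threshold in the same direction, 339 no longer passed (85 of the 311 calls at least once) and 0 changed direction. Of the counts, 293 stayed within 1.5 times the reported one and 52 did not. For T12 against WT the counts were 96 higher and 156 lower with no filter on low counts, 32 and 57 with limma on log2(FPKM + 0.1), and 92 and 163 with only these groups in the fit. For T48 against WT 201 were lower with a filter of 1 CPM in 2 libraries. Ratios to the nearest tested named locus changed in 1091 cases for T48 against KO. The share of counts without the 10 most abundant unnamed loci was 2.82%, 2.76%, 2.62% and 2.74% in WT, KO, T12 and T48, and of summed FPKM 71.6%, 69.6%, 70.0% and 72.9%. Agreement with the neighbour within 10 kb at 5 CPM or more in both was 76.2% of 84, 76.6% of 64 and 74.1% of 85 pairs for KO against WT, T12 against KO and T48 against KO. The cause of these shifts was not tested.

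Leaving out 1 library at a time, with the lone library of a group assumed to vary like the others, gave these ranges. KO against WT had 251 to 435 higher and 387 to 686 lower, lowest without WT a. T12 against KO had 321 to 573 and 274 to 436, lowest without T12 b for the increases. T48 against KO had 489 to 712 and 339 to 513. T48 against T12 had 236 to 479 and 241 to 432, with the lowest without a T12 library. T12 against WT had 25 to 73 and 42 to 124, lowest without WT a. T48 against WT had 120 to 260 and 174 to 366, lowest without WT b. Ratios to the neighbour changed in 232 to 654, 238 to 628 and 400 to 719 pairs, and ratios to the parent in 5 to 26, 5 to 16 and 4 to 27. No paired analysis was possible because the columns carry no replicate number. Under upper-quartile scaling the median log2 difference of T48 against WT was -0.122 over all loci and -0.0548 over the unnamed loci, against -0.0635 and 0.00305 as reported. Under other scalings the share of increases among calls moved by under 10 percentage points. With a median of 0.867 CPM, changes at most unnamed loci were not detectable unless large. A prior count of 0.5 gave 10 called ratios to the parent in KO against WT, and using only the best-matching symbol 12; both settings were chosen after seeing the data.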

Other observations

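Gapdh, which most cells transcribe at a high level, averaged 0.664 CPM at its named locus, and no unnamed pseudogene locus was matched to it. Actb averaged 1950 CPM. Rps29 gave 2.83 CPM at the named locus and 146 CPM at the copy Gm14303 (XLOC_015649), and Rpl38 gave 5.58 CPM against 136 CPM at Rpl38-ps2 (XLOC_021708). In FPKM, the copies averaged 866 against 12.7 and 999 against 29.9. Both copies span 301 to 600 bases, where the FPKM of unnamed loci stood at a median of 1.62 times CPM per kilobase.

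Gm7049, a copy of the malic enzyme gene Me1, was split into XLOC_007425 and XLOC_007426. The first had 5.28 and 5.02 CPM in WT, 13.4 and 14.6 in KO, 2.95 and 4.47 in T12 and 15.3 and 16.4 in T48. The second had 12 and 11.3, 32.7 and 32.6, 7.97 and 7.62, and 36.0 and 38.2 CPM in the same order. A second Dppa5a copy, Gm6798 (XLOC_028045), had 4.39 and 8.77 CPM in WT, 33.5 and 36.6 in KO, 3.30 and 1.82 in T12 and 0.129 and 0.634 in T48, the same order as Gm6083.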
